A study of Homo sapiens with 9 samples.

Results

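The aminoacyl-tRNA synthetases of Hep3B cells were examined, a family of enzymes chosen with earlier results of these data known. Its members were set by gene symbol, an amino acid letter followed by ARS. The symbols EPRS1, and FARSA and FARSB for the 2 chains of the cytosolic phenylalanine enzyme, were also taken. The rule gave 38 genes of the 60683 listed, and all 38 were among the 22672 tested. Of these, 21 encode cytosolic enzymes and 17, with the suffix 2, encode the mitochondrial set. RNA-seq counts came from 9 cultures of Hep3B, an established human hepatocellular carcinoma line, in 3 groups of 3 biological replicates seeded in 6-well plates. The groups were vehicle (DMSO) at 20% O2, vehicle at 1% O2, and 32-134D, a small-molecule inhibitor of hypoxia-inducible factors (HIFs), at 1% O2, each for 24 hours. Every culture shared the line and medium, and no library came from 32-134D at 20% O2, so what the compound does to these mRNAs without hypoxia was not measured. The labels state no dose.

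Aminoacyl-tRNA synthetases join each amino acid to its matching tRNA, the step that fixes the genetic code during translation. Animal cells keep separate nuclear genes for most cytosolic and mitochondrial enzymes, and only GARS1 and KARS1 are known to serve both compartments. Several cytosolic enzymes sit in a large multisynthetase complex with scaffold proteins. Many cytosolic synthetase genes are also known targets of ATF4, the transcription factor translated when kinases phosphorylate eIF2α during amino acid shortage or endoplasmic reticulum stress.

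Total counts ran from 6013980 to 40549699 per library, with the smallest in replicate 2 of vehicle at 20% O2. That library and replicate 3 of 32-134D stood apart from their groups on the second principal component. Hepatocyte markers were present in every library, with albumin (ALB) at 6180 to 10316 counts per 1e6 counts (CPM), although APOB, which encodes apolipoprotein B, ranged from 339.9 to 5509 CPM. The 6 hepatocyte markers summed to 17332 to 18439 CPM in vehicle at 20% O2, 10432 to 12698 CPM in vehicle at 1% O2 and 11193 to 16685 CPM with 32-134D, and APOB was called lower in hypoxia and higher with 32-134D. The 11 markers of other cell types summed to 421 to 493, 405 to 476 and 268 to 391 CPM in the same order, most of it KRT19, with CD3E and VWF at 0 counts. Of the 7 of these that were tested, 4 were called lower in hypoxia, and 4 were called higher and 1 lower with 32-134D. The part of these differences in the synthetase results was not tested. For the synthetases, CPM below are taken after TMM scaling, which adjusts library sizes for composition. A gene was called when the Benjamini-Hochberg FDR of edgeR's quasi-likelihood test over all genes was below 0.05 and the fold change exceeded 1.5. In these bulk samples, fewer cells and less mRNA per cell cannot be told apart.

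In hypoxia most cytosolic synthetase mRNAs were higher, while the mitochondrial set moved in both directions. In vehicle at 1% O2 against vehicle at 20% O2, 15 members were called higher and 2 lower, beside 19.5% and 20.3% of all genes tested. The 15 comprised 13 of the 21 cytosolic genes, 61.9% of that set, and 2 of the 17 mitochondrial genes, 11.8%. Both members called lower were mitochondrial. The vehicle groups did not overlap, whatever the test, for 22 members that were higher and 11 that were lower, beside 32.3% and 28.1% of all genes. The median log2 fold change was 0.85 over the cytosolic genes, 0.04 over the mitochondrial genes and 0.001 over all genes tested. No cytosolic member was called lower by edgeR or DESeq2, although 3 were lower at an unadjusted p below 0.05. Scaling to total library size, which lowered the median of all genes to -0.21, gave 13 members higher and 5 lower in place of 15 and 2.

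**Figure D1:**
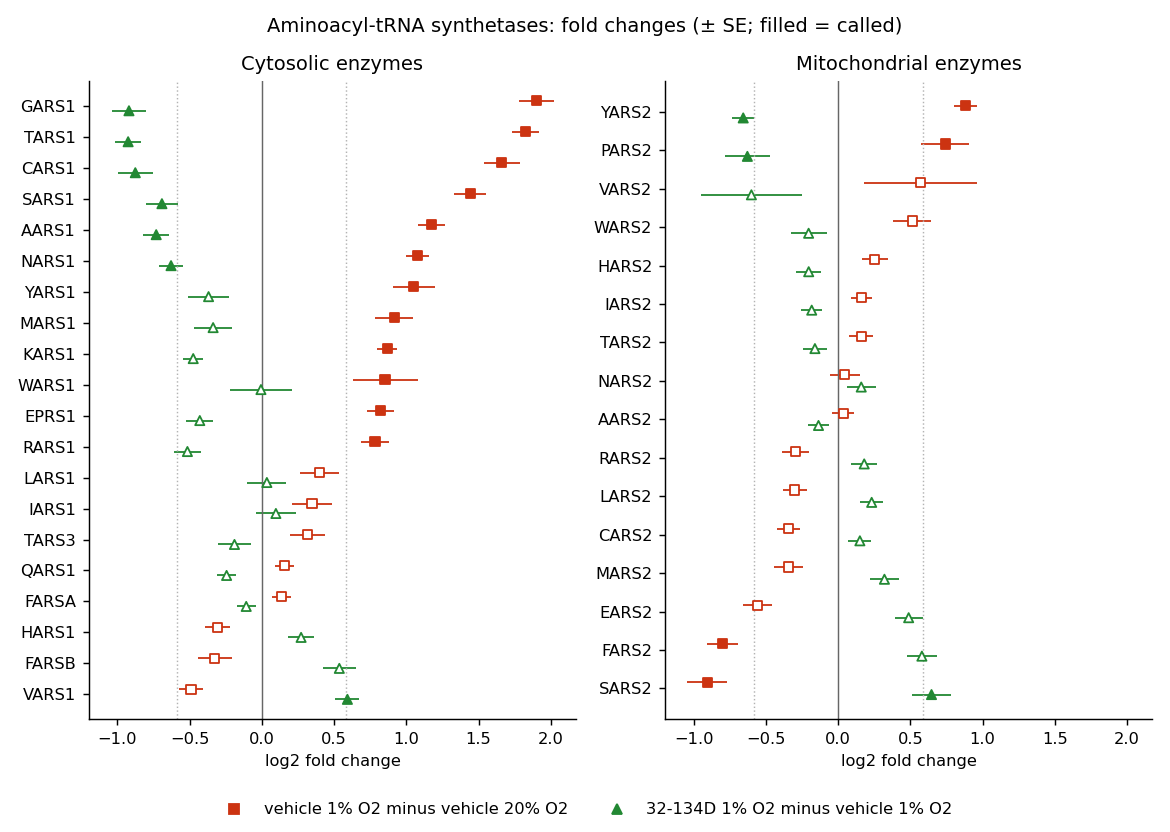
Log2 fold changes (x axis, edgeR estimate ± SE) of 20 cytosolic and 16 mitochondrial synthetase genes (y axis), ordered by the hypoxia difference. Red squares give vehicle at 1% O2 against vehicle at 20% O2, green triangles 32-134D against vehicle at 1% O2 (both use the libraries of vehicle at 1% O2), filled symbols are called, and dotted lines mark a fold change of 1.5: 12 cytosolic squares are filled on the right, against 2 mitochondrial squares on the right and 2 on the left.

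Summed over the 21 genes, cytosolic synthetase mRNA was 3191 ± 24.8 CPM (SD, n = 3) in vehicle at 20% O2 and 5920 ± 187 CPM (SD, n = 3) in vehicle at 1% O2. The 17 mitochondrial genes summed to 680.5 ± 8.82 CPM and 679 ± 14.7 CPM (SD, n = 3 each). Counts on the cytosolic set thus went from 4.69 ± 0.0863 times those on the mitochondrial set to 8.72 ± 0.194 times (SD, n = 3), a ratio taken within each library that does not depend on scaling. The cytosolic set includes GARS1 and KARS1, which serve both compartments. Their means were 244 and 105 CPM in vehicle at 20% O2 and 911 and 191 CPM in vehicle at 1% O2. The 3 ratios of either vehicle group lay far from those of the other. An exact permutation test of 3 against 3 libraries cannot give a two-sided p below 0.1, the value reached here.

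**Figure D2:**
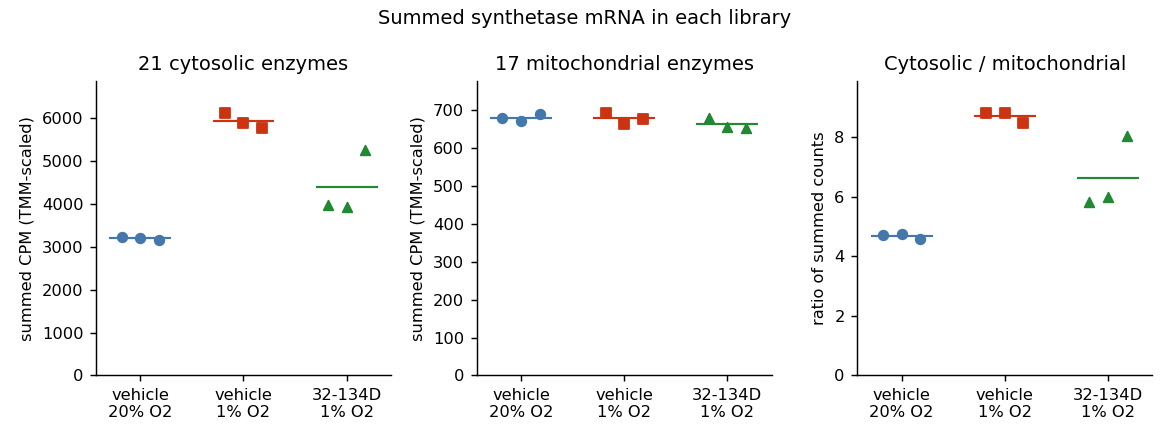
Summed mRNA of the 21 cytosolic genes and of the 17 mitochondrial genes (y axes, CPM after TMM scaling) and the ratio of their summed counts, for each of 3 libraries per group (points, replicates 1 to 3 from left to right) with the group mean (line). The cytosolic sum separates the vehicle groups, the mitochondrial sum lies between 655 and 694 CPM in all 9 libraries, and replicate 3 of 32-134D lies above the other 2 of its group for the cytosolic sum and the ratio.

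The largest hypoxia differences were in the enzymes for glycine, threonine, cysteine, serine and alanine. GARS1, the glycyl-tRNA synthetase of both compartments (chr7:30594681-30634033 on GRCh38), stood at 242, 248 and 243 CPM in vehicle at 20% O2 and at 933, 910 and 890 CPM in vehicle at 1% O2. The groups did not overlap, and GARS1 was 3.73-fold higher (log2 fold change 1.90 ± 0.12 SE, FDR = 7.32e-09). TARS1, which charges threonine (chr5:33440696-33469539), had 179, 163 and 153 CPM at 20% O2 and 600, 589 and 564 CPM at 1% O2. It was 3.55-fold higher (1.83 ± 0.09, FDR = 8.14e-10), again with every hypoxic library above every normoxic library.

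CARS1, for cysteine (chr11:3000922-3057613), had 79.0, 75.1 and 83.8 CPM at 20% O2 and 254, 250 and 250 CPM at 1% O2, a 3.16-fold difference (log2 fold change 1.66 ± 0.12 SE, FDR = 3.32e-08). SARS1 (chr1:109213918-109238169) charges serine, also onto the selenocysteine tRNA. Its levels were 140, 131 and 130 CPM at 20% O2 and 377, 368 and 346 CPM at 1% O2, a 2.72-fold difference (1.44 ± 0.11, FDR = 4.66e-08). AARS1, for alanine (chr16:70252295-70289543), had 265, 276 and 283 CPM against 655, 615 and 593 CPM and was 2.26-fold higher (1.18 ± 0.09, FDR = 6.08e-08). None of these 3 genes had overlapping vehicle groups.

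The other cytosolic genes called higher had smaller differences. In order of fold they included NARS1 (asparagine), YARS1 (tyrosine), MARS1 (methionine), KARS1 (lysine), WARS1 (tryptophan), EPRS1, whose single chain charges glutamate and proline, and RARS1 (arginine). Their log2 fold changes ran from 1.08 ± 0.08 for NARS1 (FDR = 4.02e-08) to 0.78 ± 0.09 for RARS1 (FDR = 5.18e-06), and in each the vehicle groups did not overlap. RARS1 lost its call with scaling to total library size (0.57). For MARS1, 13.3% of the annotated exon bases overlap other genes, among them 355 bases shared with DDIT3 on the opposite strand. DDIT3, a transcription factor gene of the stress response, was itself 4.29-fold higher, and its part in the MARS1 count was not tested.

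The remaining 8 cytosolic genes were not called. LARS1 (leucine) and TARS3, a second threonine enzyme, passed the FDR with log2 fold changes of 0.40 ± 0.14 and 0.32 ± 0.12 but not the fold threshold. IARS1 (isoleucine, 0.35 ± 0.14), QARS1 (glutamine, 0.16 ± 0.07) and FARSA (phenylalanine α chain, 0.14 ± 0.07) did not pass the FDR, and the last pair changed sign with scaling to total library size (-0.06 and -0.08). The other 3 had the opposite sign to most of the cytosolic set.

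VARS1 (chr6:31777518-31795953), the valyl-tRNA synthetase, had 497, 519 and 490 CPM in vehicle at 20% O2 and 341, 362 and 368 CPM in vehicle at 1% O2. Its log2 fold change was -0.49 ± 0.08 (FDR = 0.000142), below the fold threshold by this scaling and past it with scaling to total library size (-0.71) or with at least 10 counts required in every library (-0.60). HARS1 (histidine) had 79.3, 80.6 and 76.4 CPM against 63.4, 65.3 and 61.9 CPM (-0.31 ± 0.09, FDR = 0.00867). FARSB, the phenylalanine β chain, had 47.9, 42.2 and 40.4 CPM against 38.9, 30.7 and 34.2 CPM (-0.33 ± 0.12, FDR = 0.0281). All 3 genes had lower levels in every hypoxic library, and the value for FARSA, the partner chain of FARSB, was 0.14, or -0.08 with scaling to total library size.

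**Figure D3:**
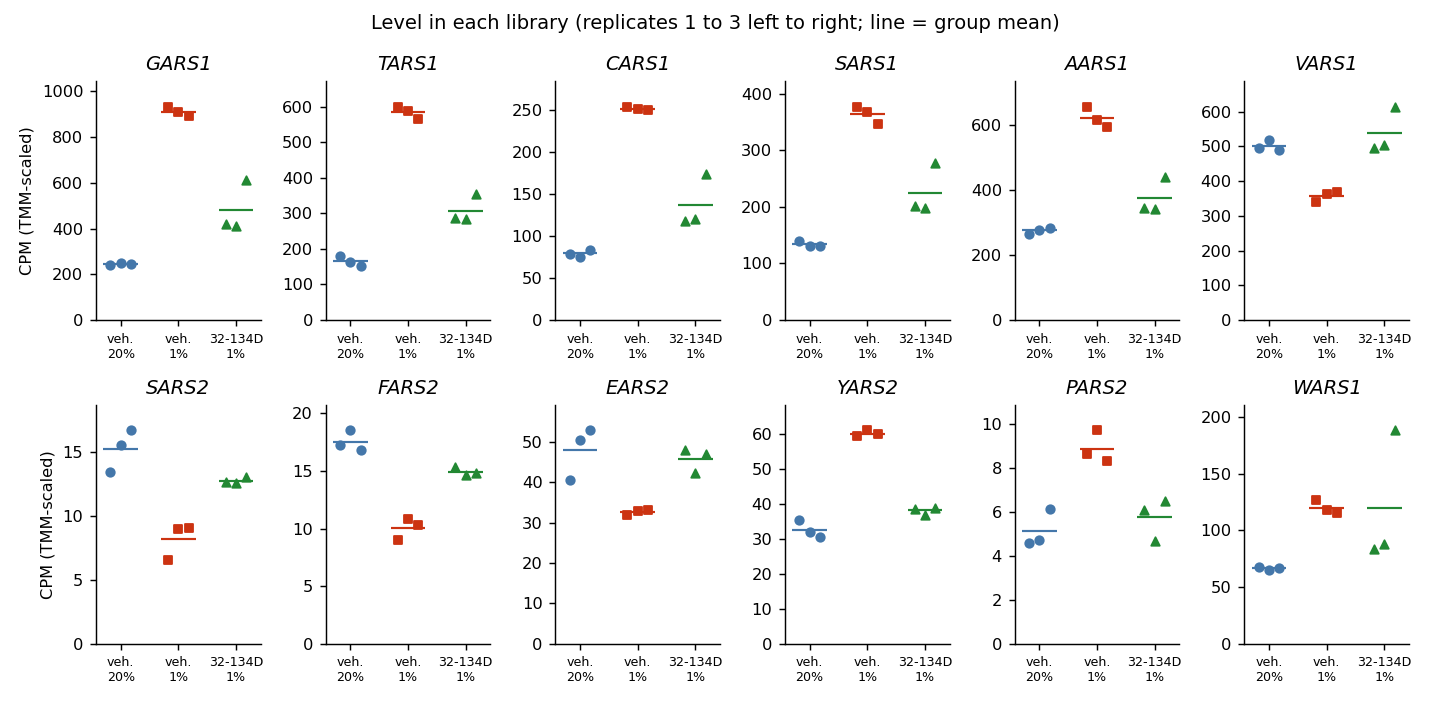
Level (y axes, CPM after TMM scaling, from 0) of 12 synthetase genes in each of the 9 libraries (points, replicates 1 to 3 from left to right within vehicle at 20% O2, vehicle at 1% O2 and 32-134D at 1% O2), with group means as lines. The top row holds GARS1, TARS1, CARS1, SARS1 and AARS1, which are highest in vehicle at 1% O2, and VARS1, which is lowest there. The bottom row holds the mitochondrial SARS2, FARS2 and EARS2, lowest in vehicle at 1% O2, YARS2 and PARS2, highest there, and WARS1, for which replicate 3 of 32-134D has 188 CPM.

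The promoters of the cytosolic genes are shown because 13 of them were called higher and a sequence read by ATF4 is known. ATF4 with a C/EBP partner binds the C/EBP-ATF response element, of which TGATGCAA is a frequent core. RefSeq windows on GRCh38.p14, from 250 bases before to 50 after each transcription start, were found for 30 members. TGATGCAA was searched on both strands. It stood in the windows of 6 of the 16 cytosolic members with a window and in 0 of 14 mitochondrial members, beside 0.866% of all 35116 windows and 1.08% of the 27305 genes with a window. A looser spelling, TGATGNAA, which includes every TGATGCAA, was in 3.62% of windows and 4.46% of genes and added GARS1 and the mitochondrial YARS2. In the 30-base stretches below, printed on the gene's strand 5′ to 3′, the capitals mark the match, and GARS1 is shown for its mismatch with the core.
AARS1, chr16:70289675-70289704, minus strand: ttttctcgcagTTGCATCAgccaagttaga
CARS1, chr11:3057407-3057436, minus strand: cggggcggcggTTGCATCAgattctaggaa
IARS1, chr9:92293692-92293721, minus strand: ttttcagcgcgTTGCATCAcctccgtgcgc
MARS1, chr12:57488053-57488082, plus strand: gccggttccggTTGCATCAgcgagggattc
NARS1, chr18:57621804-57621833, minus strand: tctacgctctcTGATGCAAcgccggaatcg
TARS1, chr5:33440956-33440985, plus strand: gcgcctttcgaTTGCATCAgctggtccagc
GARS1, chr7:30594834-30594863, plus strand: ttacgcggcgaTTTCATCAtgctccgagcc

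Of the 6 exact matches, 5 begin between 13 bases before and 15 bases after the annotated start, and that of AARS1 begins 187 bases before it. Among the 16 cytosolic members with a window, 5 of the 6 with the core and 6 of the 10 without it were called higher in hypoxia, with median log2 fold changes of 1.13 and 0.80. SARS1 and GARS1, with differences of 1.44 and 1.90, lacked the exact core in this window, and IARS1 held it with a difference of 0.35. The core letters of the HIF binding site stood in windows of both sets: ACGTG was in 4 of 16 cytosolic and 5 of 14 mitochondrial members, beside 24.9% of genes with a window (21.4% of windows), and GCGTG in 13 of 16 and 12 of 14, beside 40.6% (36.5%). A match is a description of the sequence and not of binding.

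Among mitochondrial members, the serine and phenylalanine enzymes were called lower. SARS2, the mitochondrial serine enzyme (chr19:38915266-38930896), had 13.4, 15.5 and 16.7 CPM in vehicle at 20% O2 and 6.57, 8.96 and 9.06 CPM in vehicle at 1% O2. The groups were apart, and SARS2 was 1.87-fold lower (log2 fold change -0.91 ± 0.14 SE, FDR = 5.46e-05). However, 57.0% of its annotated exon bases are shared with other genes, most of them with AC011455.2 on the same strand, which had 0 to 3 counts per library. MRPS12 on the opposite strand shares 349 bases and had 290 to 1991 counts per library. The part of these genes in the SARS2 count was not tested. FARS2 (phenylalanine, chr6:5261044-5829192) had 17.3, 18.5 and 16.8 CPM against 9.01, 10.8 and 10.3 CPM and was 1.74-fold lower (-0.80 ± 0.11, FDR = 1.52e-05).

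YARS2, for tyrosine (chr12:32727490-32755902), went the other way, with 35.3, 32.0 and 30.6 CPM at 20% O2 and 59.4, 61.1 and 59.9 CPM at 1% O2, a 1.85-fold difference (log2 fold change 0.88 ± 0.08 SE, FDR = 2.28e-07). PARS2, for proline (chr1:54756898-54764514), had 4.59, 4.71 and 6.14 CPM against 8.64, 9.71 and 8.30 CPM and was 1.67-fold higher (0.74 ± 0.17, FDR = 0.0015). PARS2 lost its call when counts were scaled to total library size (0.53). Both genes had every hypoxic library above every normoxic library.

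By FDR alone, 8 of the 17 mitochondrial genes were lower and 4 higher, beside 25.6% and 27.9% of all genes, and 6 and 2 of these were not called. EARS2, for glutamate, fell just short of the fold threshold, with 40.6, 50.6 and 52.9 CPM against 31.9, 32.8 and 33.3 CPM (log2 fold change -0.56 ± 0.10 SE, FDR = 0.00021). It was called with DESeq2 or RLE size factors (-0.60 each), by total library size (-0.77), under the 10-count requirement (-0.67) and without replicate 1 of vehicle at 20% O2 (-0.72) or 32-134D replicate 1 or 2 (-0.61 each). Among the others lower by FDR, MARS2, CARS2, LARS2 and RARS2 had log2 fold changes from -0.35 to -0.29. WARS2 (0.51 ± 0.13) and HARS2 (0.25 ± 0.09) were higher by FDR. AARS2, IARS2, NARS2 and TARS2 lay between 0.04 and 0.16, and all 4 were below 0 with scaling to total library size (-0.18 to -0.05). VARS2 had 2 to 33 counts per library, too few to detect a difference of its size (0.57 ± 0.39, FDR = 0.237).

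The cytosolic and mitochondrial enzymes for the same amino acid were compared by the log2 ratio of their counts within each library, which removes the library size. Of 18 such pairs, counting EPRS1 with both EARS2 and PARS2 and both phenylalanine chains with FARS2, the ratio was higher in every library of vehicle at 1% O2 than in any of vehicle at 20% O2 for 15, and lower in every one for 2. The exact permutation p was 0.1 for each of these 17, the smallest that 3 against 3 libraries can give, so no pair could pass a threshold of 0.05 or an adjustment over the 18. The median difference was 0.98.

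The serine pair had the largest difference, 2.34, from a mean log2 ratio of 3.14 ± 0.22 to 5.49 ± 0.31 (SD, n = 3). It was the only pair of this family whose 2 enzymes were called in opposite directions, with the overlap of SARS2 noted above. The cysteine pair followed at 2.01 and the threonine pair at 1.68. For tyrosine, both enzymes rose and the ratio difference was only 0.17. For proline, EPRS1 and PARS2 both rose, the groups overlapped and the difference was 0.02.

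The ratio moved the other way for histidine and valine. HARS1 to HARS2 went from 1.09 ± 0.13 to 0.52 ± 0.07 on the log2 scale (SD, n = 3). HARS1 and HARS2 lie head to head on chr5 and share 437 exon bases on opposite strands, and whether counting used strand is not given in the sources used here. VARS1 to VARS2 went from 10.2 ± 0.58 to 8.94 ± 0.40, a ratio that rests on the few counts of VARS2. VARS2 shares 1858 exon bases with GTF2H4 on the same strand.

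**Figure D4:**
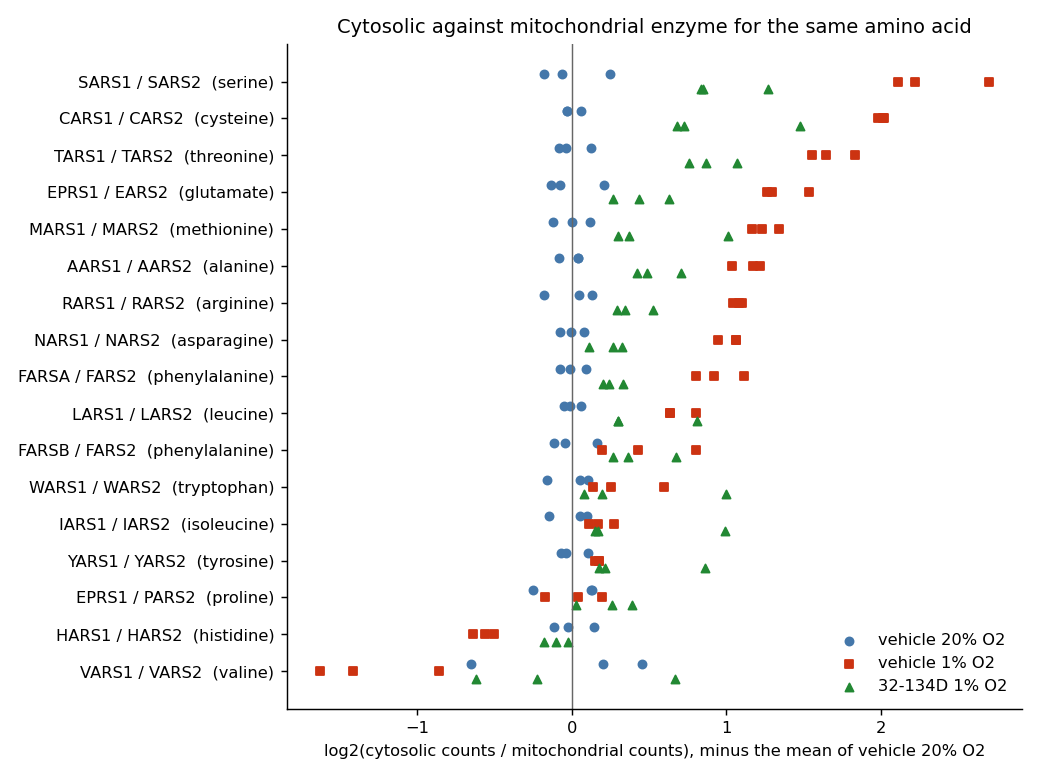
Log2 ratio of counts, cytosolic over mitochondrial enzyme, for 17 of the 18 amino acid pairs (y axis) in each of the 9 libraries, with the mean of vehicle at 20% O2 subtracted (x axis). Blue circles are vehicle at 20% O2, red squares vehicle at 1% O2 and green triangles 32-134D at 1% O2: the red squares lie to the right of all blue circles for 14 pairs and to the left for histidine and valine.

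With 32-134D at 1% O2, a subset of the cytosolic synthetase mRNAs was lower than in vehicle at 1% O2. In all, 9 members were called lower and 2 higher, beside 13.7% and 16.2% of all genes tested. The 9 comprised 7 cytosolic genes (33.3% of that set), among them TARS1, GARS1, CARS1, AARS1, SARS1 and NARS1, and the mitochondrial YARS2 and PARS2. The 2 called higher were SARS2 and VARS1. Leaving out 1 library gave from 5 lower and 5 higher (without 32-134D replicate 2) to 10 lower and 2 higher (without 32-134D replicate 3), and 1 higher without replicate 1 of vehicle at 1% O2. The median log2 fold change was -0.37 over the cytosolic genes, 0.15 over the mitochondrial genes and -0.01 over all genes. This comparison uses the same libraries of vehicle at 1% O2 as the hypoxia comparison, so the 2 differences of a gene are not independent.

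TARS1 had 286, 284 and 353 CPM in the 32-134D libraries, all below the 564 to 600 CPM of vehicle at 1% O2, and was 1.90-fold lower (log2 fold change -0.93 ± 0.09 SE, FDR = 1.09e-06). GARS1 had 420, 413 and 613 CPM and was 1.89-fold lower (-0.92 ± 0.12, FDR = 1.52e-05). CARS1 had 118, 120 and 174 CPM and was 1.84-fold lower (-0.88 ± 0.12, FDR = 2.55e-05). In each, replicate 3 was the highest 32-134D library, yet it did not reach vehicle at 1% O2.

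AARS1 had 344, 340 and 438 CPM with 32-134D (log2 fold change -0.73 ± 0.09 SE, FDR = 1.16e-05). SARS1 had 201, 197 and 277 CPM (-0.69 ± 0.11, FDR = 8.90e-05). NARS1 had 228, 224 and 267 CPM against 393, 364 and 354 CPM (-0.63 ± 0.08, FDR = 1.44e-05). These 3 had no overlap with vehicle at 1% O2. With scaling to total library size AARS1 (-0.55), SARS1 (-0.51) and NARS1 (-0.44) all lost their calls. SARS1 lost its call without 32-134D replicate 1 or 2 (-0.56 and -0.55), and NARS1 lost its call without any 1 of 5 libraries (-0.53 to -0.58) and with DESeq2, RLE size factors or only the 2 groups compared (-0.57 each) or at least 10 counts (-0.54), in each case through the fold threshold and not the FDR.

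Replicate 3 of 32-134D was higher than its partners for most of the cytosolic set: the cytosolic sum was 3963 and 3929 CPM in replicates 1 and 2 and 5260 CPM in replicate 3, while the mitochondrial sum was 680.1, 655 and 655 CPM. WARS1 showed this most, at 83.7 and 87.6 CPM in replicates 1 and 2 and 188 CPM in replicate 3, above the 116 to 127 CPM of vehicle at 1% O2. Its log2 fold change was -0.01 ± 0.22 with all libraries and -0.49 without replicate 3. LARS1 and IARS1 changed sign in the same way, from 0.03 and 0.10 to -0.20 and -0.16. YARS1, at 136, 133 and 220 CPM, was not called (-0.37 ± 0.14, FDR = 0.045) and was called lower without that library (-0.64). Without it, 10 members were called lower, 8 of them cytosolic, and 2 higher.

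VARS1 was the cytosolic gene called higher, with 497, 503 and 615 CPM in the 32-134D libraries and all of vehicle at 1% O2 below them (log2 fold change 0.59 ± 0.08 SE, FDR = 3.47e-05). Its fold of 1.51 sat at the threshold, and the call was lost without 32-134D replicate 3 (0.49), without replicate 1 of vehicle at 1% O2 (0.56) or with no filter on low counts (0.58). FARSB (45.7, 46.6 and 58.8 CPM, 0.54 ± 0.11, FDR = 0.00114) and HARS1 (70.9, 70.6 and 88.7 CPM, 0.27 ± 0.09, FDR = 0.0191) were also higher by FDR without passing the fold threshold. These are the 3 cytosolic genes whose hypoxia difference was below 0. FARSB was called with DESeq2 (0.60) and without any 1 of 5 libraries (0.59 to 0.66).

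KARS1, RARS1, EPRS1, MARS1 and QARS1 were lower by FDR alone, with log2 fold changes from -0.52 ± 0.09 for RARS1 to -0.24 ± 0.07 for QARS1. For MARS1 (-0.34 ± 0.13), 297, 295 and 454 CPM overlapped vehicle at 1% O2. FARSA and TARS3, at -0.11 ± 0.07 and -0.19 ± 0.12, did not pass the FDR. By FDR alone, 16 members were lower and 9 higher, beside 25.5% and 21.9% of all genes. The libraries did not overlap for 17 lower and 9 higher members, beside 30.8% and 25.4%.

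Among the mitochondrial enzymes, SARS2 had 12.68, 12.56 and 13.03 CPM with 32-134D, above the 6.57 to 9.06 CPM of vehicle at 1% O2, and was called higher (log2 fold change 0.65 ± 0.13 SE, FDR = 0.00105). The call was lost without replicate 1 of vehicle at 1% O2, the lowest library (0.50). FARS2 had 15.4, 14.6 and 14.9 CPM and a fold of 1.49, just inside the uncalled side (0.58 ± 0.10, FDR = 0.000311), and it was called with DESeq2 (0.64) and without any 1 of 6 libraries (0.59 to 0.69). YARS2 had 38.7, 36.8 and 38.9 CPM and was called lower (-0.66 ± 0.08, FDR = 5.61e-06), a call lost without 32-134D replicate 2 (-0.58), with scaling to total library size (-0.47) and with at least 10 counts required in every library (-0.56). PARS2 had 6.07, 4.68 and 6.49 CPM (-0.63 ± 0.16, FDR = 0.00374), and its call was lost with DESeq2, RLE size factors or only the 2 groups compared (-0.57 each), with at least 10 counts (-0.53), with total library size (-0.44), and without 32-134D replicate 2 (-0.44), replicate 2 of vehicle at 1% O2 (-0.50) or replicate 1 of vehicle at 20% O2 (-0.57). None of these 4 genes overlapped vehicle at 1% O2.

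Of the others, EARS2, MARS2 and LARS2 were higher by FDR (log2 fold changes 0.49, 0.32 and 0.23), and IARS2 was lower (-0.18). Without 32-134D replicate 2, EARS2 was called higher (0.60). The 18 pairs had a lower cytosolic-to-mitochondrial ratio in every 32-134D library than in vehicle at 1% O2 for 10, a higher ratio for histidine and valine, and overlapping ratios for 6. The serine pair again had the largest difference among those lower (-1.36). Scaling to total library size, which moved the median of all genes to 0.17, gave 5 members higher and 3 lower in place of 2 and 9. The within-library ratio of the summed sets does not depend on scaling and was 5.83, 6.00 and 8.03 with 32-134D, below the 8.49 to 8.83 of vehicle at 1% O2.

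Against vehicle at 20% O2, the 32-134D libraries at 1% O2 still held more of several cytosolic mRNAs. In all, 6 members were called higher, all cytosolic, beside 3.0% of all genes tested: GARS1 (log2 fold change 0.98 ± 0.12 SE, FDR = 0.000105), TARS1 (0.90 ± 0.09, FDR = 2.09e-05), WARS1 (0.85 ± 0.22, FDR = 0.0276), CARS1 (0.78 ± 0.12, FDR = 0.00082), SARS1 (0.75 ± 0.11, FDR = 0.000487) and YARS1 (0.68 ± 0.15, FDR = 0.00799). No member was called lower by edgeR or DESeq2, beside 0.516% of all genes, and 1 was lower at an unadjusted p below 0.05. By FDR alone, 11 members were higher and 0 lower by edgeR, beside 7.81% and 2.44% of all genes, and the libraries did not overlap for 17 higher and 4 lower, beside 17% and 12.8%. The median log2 fold change was 0.43 over the cytosolic and -0.03 over the mitochondrial genes. Without 32-134D replicate 3, GARS1 and TARS1 remained called, and CARS1 (0.57), SARS1 (0.57), YARS1 (0.41) and WARS1 (0.36) fell below the fold threshold with every FDR still passed. WARS1 also lost its call without any 1 library of vehicle at 20% O2 (FDR from 0.0739 to 0.107) or with DESeq2 (FDR = 0.0852), and YARS1 without replicate 2 of that group (FDR = 0.0502). MARS1 lay just under the fold threshold (0.58 ± 0.13, FDR = 0.0125) and was called higher with DESeq2 or RLE size factors (0.59 each), with no filter (0.60) and without any 1 of 5 libraries (0.60 to 0.69).

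Levels between genes were compared as CPM per kilobase of annotated exon. In vehicle at 20% O2, VARS1 stood highest at 82.5 ± 2.49 (SD, n = 3), followed by FARSA at 64.8 ± 3.07 and AARS1 at 61.1 ± 2.0, the last pair within their spread. GARS1 ranked 4 at 58.8 ± 0.738 there and 1 in vehicle at 1% O2, at 219 ± 5.19, ahead of AARS1 at 138 ± 7.02 and TARS1 at 102 ± 3.21. VARS1 ranked 9 in that group. With 32-134D, GARS1 led at 116 ± 27.3, followed by VARS1 at 88.5 ± 10.9 and AARS1 at 83.2 ± 12.3, the last pair within their spread. The median level per kilobase was 26.9, 39.8 and 33.9 over the cytosolic genes in the 3 groups, and 7.54, 5.74 and 6.84 over the mitochondrial genes. VARS2 was lowest in every group, at 0.0517, 0.088 and 0.0569. IARS2, at 42.0, 47.0 and 41.3, was the mitochondrial enzyme with the highest level.

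Cytosolic enzymes were then grouped by complex. Of the 8 synthetases of the multisynthetase complex, 5 (62.5%) were called higher in hypoxia, among them MARS1, KARS1, EPRS1 and RARS1. The median log2 fold change over the 8 was 0.80. Of the 13 cytosolic genes outside the complex, 8 (61.5%) were called higher in hypoxia, with a median of 1.05, beside 19.5% of all genes. With 32-134D, 1 of the 8 was called lower (12.5%), near the 13.7% of all genes. Outside the complex, 6 were called lower (46.2%) and 1 higher (7.69%), beside 13.7% and 16.2% of all genes. The counts differ through the fold threshold, as the median log2 fold changes were alike, -0.38 in the complex and -0.37 outside it. By FDR alone, 6 of the 8 and 7 of the 13 were lower with 32-134D, beside 25.5% of all genes. In the same order, 0 and 3 were higher, beside 21.9%. The scaffold genes AIMP1, AIMP2 and EEF1E1 had 0 calls by edgeR or DESeq2 in either comparison, with 1 at an unadjusted p below 0.05 in each. That 1 was AIMP1, at 0.50 ± 0.08 in hypoxia (FDR = 5.24e-05) and -0.35 ± 0.07 with 32-134D (FDR = 0.0013). By catalytic fold, 6 of 18 class I genes were called higher in hypoxia and 0 lower, and 8 of 19 class II genes were called higher and 2 lower, by edgeR and beside 19.5% and 20.3% of all genes. For class I, DESeq2 called 1 lower and 6 were lower at an unadjusted p below 0.05.

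The 11 cytosolic genes often listed as ATF4 targets are set beside the other 10. Of the 11, 10 (all but IARS1) were called higher in hypoxia, beside 19.5% of all genes tested, with a median log2 fold change of 1.08. Of the other 10, 3 (30.0%) were called higher, among them KARS1 and RARS1, with a median of 0.24. With 32-134D, 6 of the 11 were called lower and the median was -0.63. In the other 10, 1 was called lower and 1 higher (10.0% each), with a median of -0.15. Over all genes, 13.7% were called lower and 16.2% higher. All 6 members called higher in 32-134D against vehicle at 20% O2 belonged to the 11, beside 3.0% of all genes called higher. The list was written from general knowledge with results of these data known, so the split is a description.

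**Figure D5:**
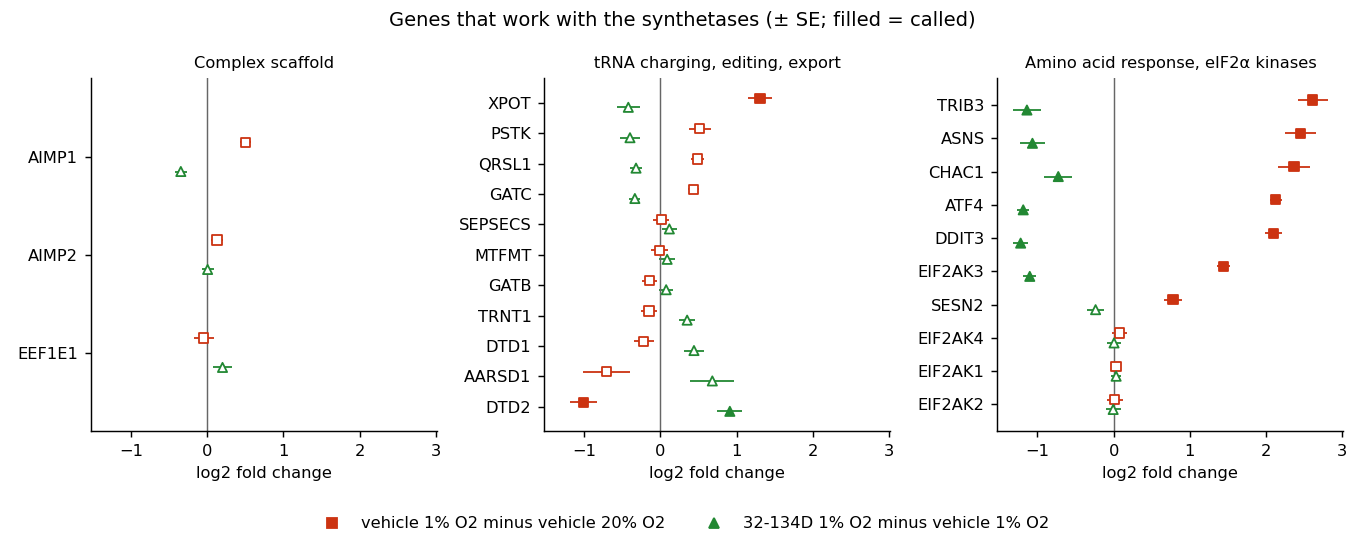
Log2 fold changes (x axis, edgeR estimate ± SE) of the 3 scaffold genes of the multisynthetase complex, 11 genes of tRNA charging, editing and export, and 10 genes of the amino acid response and its kinases (y axis). Red squares give vehicle at 1% O2 against vehicle at 20% O2, green triangles 32-134D against vehicle at 1% O2, and filled symbols are called: 7 genes of the amino acid response panel are filled on the right in hypoxia, in the charging panel XPOT is filled on the right and DTD2 on the left.

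The genes of the amino acid response were mostly called higher in hypoxia and lower with 32-134D. ATF4 mRNA had 238, 221 and 221 CPM in vehicle at 20% O2, 974, 1019 and 984 CPM in vehicle at 1% O2 and 415, 408 and 484 CPM with 32-134D. The 3 groups did not overlap, with a 4.37-fold difference in hypoxia (log2 fold change 2.13 ± 0.08 SE, FDR = 4.09e-11) and a 2.28-fold difference with 32-134D (-1.19 ± 0.08, FDR = 2.42e-08). Of the 10 genes listed, 7 were called higher in hypoxia and 6 lower with 32-134D, beside 19.5% and 13.7% of all genes. This list too was chosen with earlier results of these data known. SESN2 was called higher in hypoxia (0.78 ± 0.12) and not called with 32-134D (-0.24 ± 0.11), where its libraries overlapped vehicle at 1% O2. ASNS, asparagine synthetase, was higher by 2.46 ± 0.20 from a mean of only 2.13 CPM in vehicle at 20% O2, and TRIB3, DDIT3 and CHAC1, targets of ATF4, by 2.62, 2.10 and 2.37. Among the kinases that phosphorylate eIF2α, EIF2AK3, which encodes PERK, was called (1.45 ± 0.09 in hypoxia, FDR = 3.62e-09, and -1.10 ± 0.08 with 32-134D, FDR = 9.68e-08), and EIF2AK1, EIF2AK2 and EIF2AK4 were not called, with values from -0.01 to 0.08 in both comparisons.

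Among 11 genes that load, check or carry tRNAs beside the synthetases, 1 was called higher and 1 lower in hypoxia. That is 9.09% each, beside 19.5% and 20.3% of all genes. With 32-134D, 1 was called higher (9.09%), beside 16.2% of all genes. XPOT, the nuclear exporter of tRNA, had 137, 130 and 140 CPM in vehicle at 20% O2, 386, 315 and 308 CPM in vehicle at 1% O2 and 210, 206 and 338 CPM with 32-134D. It was called higher in hypoxia (log2 fold change 1.31 ± 0.16 SE, FDR = 4.39e-06), and its 32-134D libraries overlapped vehicle at 1% O2 through replicate 3. DTD2, which removes wrongly charged amino acids from tRNA, was called lower in hypoxia (-1.01 ± 0.17, FDR = 0.000142) and higher with 32-134D (0.91 ± 0.17, FDR = 0.000343). GATC and QRSL1, subunits of the mitochondrial amidotransferase that makes glutaminyl-tRNA, were higher in hypoxia by FDR at 0.44 and 0.49, while GATB, the third subunit, was at -0.15. MTFMT, SEPSECS, TRNT1, PSTK, DTD1 and AARSD1 were not called by edgeR. Over the 11 genes, DESeq2 called 2 lower in hypoxia and 2 higher with 32-134D, where edgeR called 1 each.

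Mitochondrial ribosomal protein genes, whose products use the charged mitochondrial tRNAs, are set beside the mitochondrial synthetases. Of 78 measured, 25 were called higher and 3 lower in hypoxia, with a median log2 fold change of 0.34, against 2, 2 and 0.04 for the 17 synthetases. With 32-134D, 1 was called higher and 11 lower, with a median of -0.29, against 1, 2 and 0.15. The 11 are 14.1% of that list, beside 13.7% of all genes called lower, and the 25 higher in hypoxia are 32.1%, beside 19.5%. By FDR alone, 43 of the 78 were lower with 32-134D and 5 higher, beside 25.5% and 21.9% of all genes. The libraries did not overlap for 56 lower and 11 higher, beside 30.8% and 25.4%. In hypoxia, DESeq2 called 19 of the 78 higher and 5 lower in place of 25 and 3. The difference between the lists was not tested.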

How the data were processed

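Total RNA was extracted from Hep3B cultures with TRIzol and DNase, and libraries were sequenced on an Illumina NovaSeq instrument. The authors trimmed reads with Bbduk, aligned them with STAR to an Ensembl index of GRCh38 and deposited raw counts per gene from featureCounts. Their tool versions and the strand setting are not given in the sources used here. The medium is named differently in the labels and the methods.

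Each of the 9 columns was assigned to a library by the name in its sample title. Counts were fitted with edgeR 4.0.16 (TMM scaling, quasi-likelihood test, limma 3.58.1, R 4.3.3) in 1 fit of 3 groups, on the 22672 genes whose counts summed to at least 10, and p-values were adjusted by Benjamini-Hochberg over all of them. The common biological coefficient of variation was 10.5%. The labels call the samples biological replicates, and p-values measure the spread between them. DESeq2 1.42.0, other scalings, filters, thresholds, leaving out each library and a block by replicate number were alternatives. In data simulated for the hypoxia comparison with 22162 genes, edgeR recovered 98.5% of 200 changed genes.

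Positions and exon lengths came from GENCODE 29 by Ensembl identifier, and promoter windows from RefSeq (GRCh38.p14), which held 30 of the 38 members. The deposited counts rest on a newer Ensembl annotation of GRCh38. The members and gene lists were chosen with earlier results of these data known. Values in every library are given for the called members with the 5 largest absolute log2 fold changes in each class, members whose sign differed from most of their class, pairs called in opposite directions and the highest and lowest levels per length. Most other members and the genes of the complex, charging and amino acid response lists are named where their list is described. WARS1, YARS1, EARS2, FARSB and MARS1 values with 32-134D were added after their values were seen. The values of 2 members are not reported here, although counts, medians and sums over the sets include them.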

Additional observations from a re-analysis of the deposited data

How the results depend on the processing

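In the hypoxia comparison, 15 members higher and 2 lower became 13 and 5 with scaling to total library size, 4 lower with at least 10 counts required in every library (which dropped VARS2), 11 lower with no fold threshold, and 8 higher and 0 lower at a fold above 2. The cytosolic median of 0.85 became 0.64 by total library size and 0.74 under the 10-count requirement, and the mitochondrial median of 0.04 became -0.18 and -0.24. Of the calls over all genes, 49.0% were higher, against 34.5% with total library size.

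With 32-134D against vehicle at 1% O2, the 2 members higher became 4 with DESeq2, RLE size factors, at least 10 counts or only the 2 groups compared, 5 with total library size, 1 with no filter, 9 with no fold threshold and 0 at a fold above 2. The 9 lower became 3 with total library size, 16 with no fold threshold and 0 at a fold above 2. The mitochondrial median of 0.15 became 0.34 by total library size and 0.25 under the 10-count requirement. Of the calls over all genes, 54.2% were higher, against 72.0% with total library size. The 6 members higher in 32-134D against vehicle at 20% O2 became 2 with both libraries that stand apart left out (chosen after seeing the data), 11 with no fold threshold and 0 at a fold above 2. The share of higher calls there was 85.3%, against 74.8% with no filter.

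Leaving out each library in turn gave 15 to 16 members higher and 2 to 3 lower in hypoxia. Without replicate 1 of vehicle at 20% O2, or 32-134D replicate 1 or 2, EARS2 was called lower. With 32-134D against vehicle at 1% O2 it gave 1 to 5 higher and 5 to 10 lower, with 5 lower and 5 higher without 32-134D replicate 2, 4 higher without 32-134D replicate 1, replicate 3 of vehicle at 1% O2 or replicate 1 of vehicle at 20% O2, 3 higher without replicate 2 of vehicle at 1% O2, 1 higher without replicate 1 of that group, and 10 lower without 32-134D replicate 3. Against vehicle at 20% O2 it gave 2 to 7 higher, with 2 without 32-134D replicate 3 and 4 without replicate 2 of vehicle at 20% O2. The medians ranged from 0.80 to 0.86, -0.53 to -0.19 and 0.27 to 0.49 over the cytosolic genes and from -0.06 to 0.04, 0.09 to 0.21 and -0.12 to 0.02 over the mitochondrial genes, in the same order of comparisons.

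Members that changed sign had not been called in the comparison concerned. In hypoxia, AARS2 became -0.0096 with DESeq2, -0.013 with RLE, -0.18 by total library size and -0.075 under the 10-count requirement, and NARS2 became -0.0026, -0.00063, -0.17 and -0.063. With total library size, FARSA became -0.077, IARS2 -0.053, QARS1 -0.059 and TARS2 -0.053. For 32-134D against vehicle at 1% O2, AARS2 became 0.051, FARSA 0.078, IARS2 0.0033 and TARS2 0.025 with total library size, and IARS1 -0.16 and LARS1 -0.20 with both libraries left out. WARS1 became 0.060 with DESeq2, 0.055 with RLE, 0.18 by total library size, 0.085 under the 10-count requirement and 0.054 with only the 2 groups. Against vehicle at 20% O2 with both libraries left out, FARSA became -0.0036, HARS2 -0.063, IARS2 0.010, PARS2 -0.040, TARS2 0.015 and VARS2 0.032. TARS2 was 0.012 with DESeq2, 0.0097 with RLE and 0.019 with no filter, and VARS2 was 0.022 with DESeq2. The cause was not tested.

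Members that changed sign when 1 library was left out ranged in hypoxia from -0.063 to 0.075 (AARS2) and -0.012 to 0.088 (NARS2). For 32-134D against vehicle at 1% O2 the ranges were -0.16 to 0.27 (IARS1), -0.20 to 0.21 (LARS1) and -0.49 to 0.25 (WARS1). Against vehicle at 20% O2 they were -0.17 to 0.019 (EARS2), -0.0071 to 0.089 (FARSA), -0.15 to 0.023 (HARS1), -0.026 to 0.12 (HARS2), -0.057 to 0.038 (IARS2), -0.12 to 0.074 (MARS2), -0.0028 to 0.31 (PARS2), -0.037 to 0.059 (TARS2), -0.0046 to 0.16 (VARS1) and -0.26 to 0.51 (VARS2).

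With the replicate number as a block, the counts were 15 higher and 2 lower in hypoxia, 2 and 9 with 32-134D against vehicle at 1% O2, and 6 and 0 against vehicle at 20% O2, and TARS2 changed sign in the last (0.00028). Deviations of samples with the same number correlated at -0.032 to 0.005 over the genes tested. With 3 libraries per group, these values cannot show whether samples with the same number were handled together. Over all alternatives and members, 1769 values kept both their sign and their call or lack of one, 47 lost a call, 45 gained one and 74 changed sign. VARS2 had the fewest counts (2 to 33 per library).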
